A study of Mytilus galloprovincialis with 12 samples.

Results

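Of 1816 cDNA clones measured in the digestive gland of the mussel Mytilus galloprovincialis, 71 had shifted ratios after injection of E2 and mean ratios near the vehicle reference when the animals had been exposed to chlorpyrifos (CHP) before the injection. They were chosen by their log2 ratios of treated to reference RNA, in the values the authors deposited after their own normalization. A clone was taken when its ratio had one sign on all 4 E2 arrays with an absolute mean of at least 0.25 (a 1.19-fold difference), and when the absolute mean of the 4 CHP/E2 arrays was under 0.15 (a 1.11-fold difference). Of the 71 clones, 40 were above the reference with E2 and are called raised, and 31 were below it and are called lowered. The E2 and CHP/E2 ratios chose the clones, so these ratios are given as a description and without a test.

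The arrays were dual color MytArray cDNA chips, 4 for each of 3 treatments, and each carried RNA of a pool of 6 treated females against RNA of vehicle-treated animals. CHP/E2 mussels were kept with 4.5 mg/l of the pesticide in artificial sea water and then had 50 µl of a solution with 25 pmol of E2 injected into their posterior adductor muscle. E2 mussels had only the solvent of the pesticide in the water before the same injection, and CHP mussels had the pesticide and an injection without the hormone. Vehicle-treated mussels, the reference on every array, had DMSO at 0.02% in the water and an injection with 0.05% ethanol. The methods state 72 h of exposure and sampling 24 h after the injection for all groups, whereas the labels state 4 days of CHP for the CHP group and 3 days for the CHP/E2 group. The labels count 4 separate pools per treatment, but by the names of the scans CHP/E2 replicates 3 and 4 have the same treated pool number, and so do E2 replicates 2 and 4.

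The digestive gland of bivalves takes up and digests food particles inside its cells, in a large lysosomal system, and also stores reserves and handles foreign compounds. CHP is an organophosphate insecticide whose oxon form blocks acetylcholinesterase, the enzyme that breaks down the transmitter acetylcholine. E2, 17β-estradiol, is the main natural estrogen of vertebrates, where it acts largely through nuclear receptors that bind DNA, while in the gastropod Aplysia californica the estrogen receptor ortholog activates transcription without the hormone. The files identify each transcript by the clone that was spotted and pair no clone with a gene: none of the 1920 IDs (0) matched an entry of the RefSeq genes of this mussel, so that the clones are named by their IDs and no role, sequence or position in the genome is given. A pool of whole gland cannot tell fewer cells of a type from less RNA per cell, and no cell type marker could be checked.

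On the 12 arrays the median clone spot was 1.49 to 3.32 times as bright as its local background in the treated channel and 1.15 to 3.94 times in the reference channel. Between 62.9% and 85.7% of the clone spots were brighter than background by more than 2 of its SDs in either channel. Both channels were not required. The treated RNA carried Cy3 in place of Cy5 on CHP/E2 replicate 4, E2 replicate 4 and CHP replicate 3, and the deposited ratios of these arrays already run from treated to reference. The lowest correlation of an array's deposited ratios with those recomputed from its scanner intensities was 0.881. The number of arrays, 4 per treatment, limits the precision of each mean.

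Clones that were shifted with E2 had a wide range of ratios with CHP/E2. The E2 criterion alone was met by 191 clones, 103 raised and 88 lowered. Of the 103 raised clones, 35 had a CHP/E2 mean of at least 0.25 in the same direction, 14 had a mean between 0.15 and 0.25 in that direction, 40 were near the reference, and 14 had a mean of 0.15 or more in the opposite direction. For the 88 lowered clones the counts were 25, 16, 31 and 16. The share near the reference was therefore 38.8% of the raised and 35.2% of the lowered clones, or 37.2% of the 191, against 54.4% of all 1816 clones. In the plot of both means, the 71 clones fill a narrow band and the 120 others lie above and below it.

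**Figure D1:**
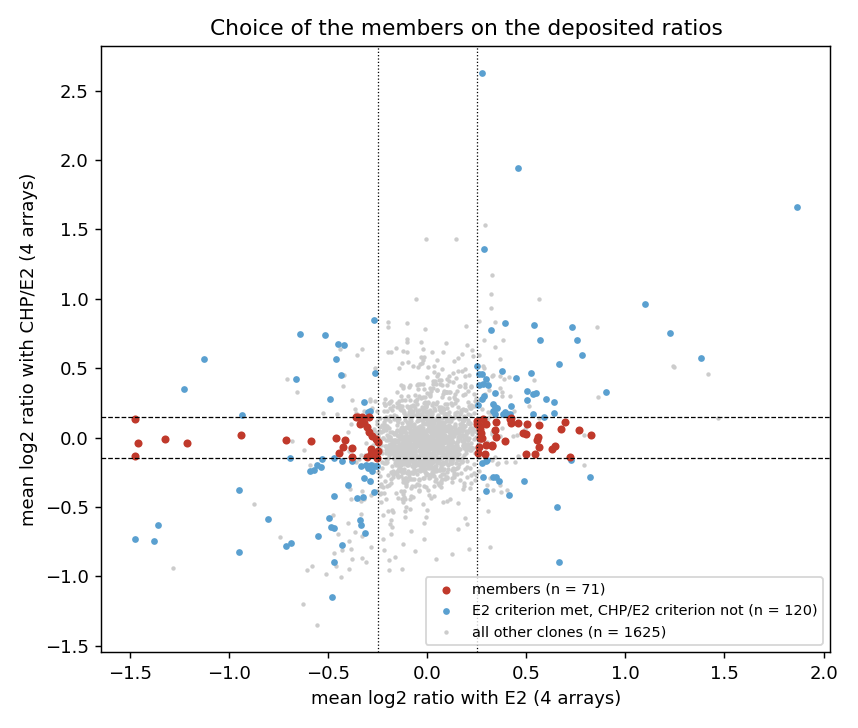
Mean deposited log2 ratio with CHP/E2 (vertical axis) against the mean with E2 (horizontal axis) for the 1816 clones, each a mean of 4 arrays. The dashed lines mark the limits of 0.15 for CHP/E2 and the dotted lines those of 0.25 for E2; the 71 chosen clones (red) lie inside the CHP/E2 limits and outside the E2 limits.

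Across each limit of the rule, the mean to which the limit applies changed little in absolute size, while the other mean could differ more. Among the raised clones, Myt01-009F05 was the nearest inside the E2 limit with a CHP/E2 mean of 0.12 and an E2 mean of 0.2512, and Myt01-011H09 was the nearest outside it, with 0.08 for CHP/E2 and 0.245 for E2. At the CHP/E2 limit, Myt01-010B07 was inside with a CHP/E2 mean of 0.14 (E2 0.42), and Myt01-009B07 was outside with 0.1512 (E2 0.59). Among the lowered clones, Myt01-019F05 was inside the E2 limit with -0.03 for CHP/E2 and -0.2512 for E2, and Myt01-001F09 was outside it with -0.03 for CHP/E2 and -0.2488 for E2. Myt01-011E01 was inside the CHP/E2 limit with 0.1488 (E2 -0.36), and Myt01-005E05 was outside it with -0.15 (E2 -0.69).

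The raised clones had a median CHP/E2 mean of 0.02 and a median E2 mean of 0.41, and the lowered clones had medians of -0.02 with CHP/E2 and -0.35 with E2. Over all clones these medians were -0.02 with CHP/E2 and -0.01 with E2. With E2 the sign was fixed by the choice, but the size varied from array to array: 15 of the 40 raised clones had an E2 array under 0.1, the lowest of them at 0.005, and 11 of the 31 lowered clones had one above -0.1. E2 replicate 1 was the lowest of the 4 E2 arrays for 16 raised clones and the highest for 16 lowered clones. E2 replicate 4, the dye-swapped array, was the lowest for 17 of the 31 lowered clones, and the median of the lowered clones was -0.56 there against -0.29 on E2 replicate 1. Whether the dye exchange had a part in this was not tested.

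**Figure D2:**
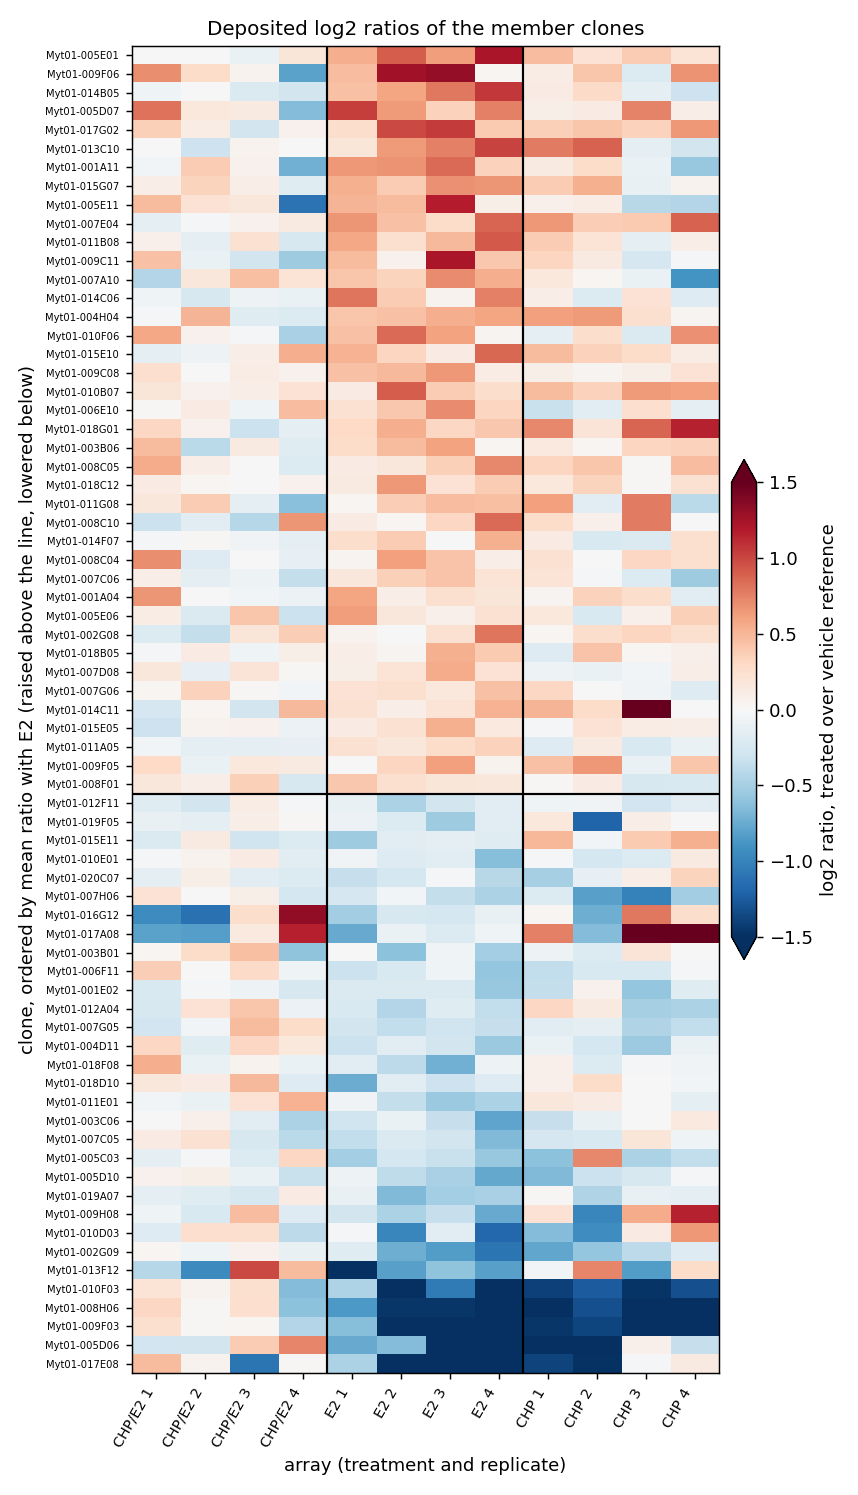
Deposited log2 ratios of the 71 clones (rows, raised above the black line and lowered below it, ordered by E2 mean) on the 12 arrays (columns, CHP/E2, E2 and CHP from left to right); red is above and blue below the vehicle reference, with colors saturated at 1.5 and -1.5. The 4 E2 columns have 1 color per row, which the rule fixed, whereas 65 of the 71 rows hold both colors in the CHP/E2 columns.

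Myt01-005E01 had the highest E2 mean of the raised clones. Its ratios, each the mean of 2 spots, were 0.005, 0.005, -0.105 and 0.18 on the CHP/E2 arrays and 0.545, 0.91, 0.625 and 1.22 on the E2 arrays. The means were 0.02 ± 0.12 for CHP/E2 and 0.82 ± 0.31 for E2 (SD, n = 4 arrays each), or 1.01-fold and 1.77-fold of the reference, and the arrays of both treatments did not overlap. With CHP alone the ratios were 0.46, 0.215, 0.375 and 0.205. Every CHP array of this clone was thus above every CHP/E2 array.

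Myt01-014B05 showed the same separation with lower CHP ratios. Its CHP/E2 arrays were at -0.065, 0, -0.215 and -0.28, and its E2 arrays at 0.435, 0.59, 0.79 and 1.055. With CHP the 4 arrays were at 0.125, 0.29, -0.135 and -0.31, on both sides of the reference. Its E2 mean was 0.72 ± 0.27, or 1.64-fold.

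In other raised clones with a high E2 mean, the CHP/E2 arrays were far apart. Myt01-009F06 had CHP/E2 ratios of 0.695, 0.275, 0.055 and -0.805 and E2 ratios of 0.465, 1.255, 1.32 and 0.025. Both treatments had an SD of 0.63, and the CHP/E2 mean of 0.05 was that of 1 array well above the reference and 1 well below it. For Myt01-005D07 the CHP/E2 ratios were 0.81, 0.16, 0.13 and -0.645, and the E2 ratios were 1.035, 0.64, 0.34 and 0.76. CHP/E2 replicate 1 of that clone lay above 3 of its 4 E2 arrays.

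The other raised clones among the 8 of highest E2 mean lay between these patterns. Myt01-017G02 had 0.355, 0.11, -0.275 and 0.07 with CHP/E2, 0.265, 0.995, 1.045 and 0.39 with E2, and 0.36, 0.42, 0.35 and 0.645 with CHP. The deposited CHP ratios of this clone were the most even of the 3 treatments, with a mean of 0.44 ± 0.14. Recomputed, its CHP ratios were less even, at 0.086, 0.315, 0.146 and 0.732, and the clone was not called with CHP (limma, adjusted p = 0.291). Myt01-013C10 had 0.01, -0.31, 0.05 and 0.005 with CHP/E2 against 0.185, 0.635, 0.75 and 1.01 with E2, without overlap. Myt01-001A11 had -0.04, 0.38, 0.07 and -0.725 with CHP/E2 against 0.65, 0.67, 0.845 and 0.345 with E2. Only CHP/E2 replicate 2 of Myt01-001A11 reached the range of its E2 arrays. Myt01-015G07 had 0.105, 0.335, 0.1 and -0.185 with CHP/E2 against 0.53, 0.38, 0.68 and 0.665 with E2, and the arrays did not overlap.

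The lowered clones reached larger ratios. Myt01-017E08 and Myt01-005D06 shared the lowest E2 mean of -1.475, or 0.36-fold of the reference. Myt01-017E08 had 0.475, 0.055, -1.09 and 0.02 with CHP/E2 and -0.47, -1.81, -1.84 and -1.78 with E2. Its CHP/E2 replicate 3 lay within the range of the E2 arrays, and its E2 replicate 1 was far above the other 3. Myt01-005D06 had -0.285, -0.275, 0.375 and 0.73 with CHP/E2 against -0.76, -0.645, -2.21 and -2.285 with E2, without overlap. Both clones were divided alike by the CHP arrays: -1.385, -1.48, -0.02 and 0.14 for Myt01-017E08, and -1.88, -2.095, 0.075 and -0.35 for Myt01-005D06. CHP replicates 1 and 2 were hybridized on the same slide, and what part the slide or the pools had in this was not tested.

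Myt01-009F03, Myt01-008H06 and Myt01-010F03 were next in order. With CHP/E2, Myt01-009F03 had 0.235, 0.02, 0.025 and -0.44, Myt01-008H06 had 0.315, 0.015, 0.255 and -0.62, and Myt01-010F03 had 0.21, 0.055, 0.235 and -0.65. Replicates 1 to 3 of all 3 clones were thus above the reference and replicate 4, the dye-swapped array, was below it. With E2, Myt01-009F03 had -0.64, -1.59, -1.69 and -1.925, Myt01-008H06 had -0.86, -1.46, -1.455 and -1.525, and Myt01-010F03 had -0.46, -1.565, -1.06 and -1.775. The E2 means were -1.46 ± 0.57, -1.32 ± 0.31 and -1.21 ± 0.59 (0.363-fold, 0.399-fold and 0.431-fold), and E2 replicate 1 was the nearest to the reference in each. Over the 12 arrays the recomputed ratios of these clones correlated at 0.92 to 0.951 pair by pair, and over the 8 CHP/E2 and E2 arrays at 0.955 or more. They shared RNA, arrays and the choice by the rule, and are not 3 independent observations.

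Of the remaining lowered clones with a large E2 mean, Myt01-002G09 had the most even CHP/E2 ratios, at 0.025, -0.065, 0.07 and -0.11, against -0.185, -0.735, -0.835 and -1.095 with E2. Its arrays did not overlap. Myt01-013F12 had the opposite character, with -0.425, -0.95, 0.985 and 0.48 on the CHP/E2 arrays and -1.535, -0.81, -0.6 and -0.82 on the E2 arrays. Its CHP/E2 mean of 0.02 had an SD of 0.87. Myt01-010D03 had -0.19, 0.255, 0.235 and -0.39 with CHP/E2, and its E2 arrays were divided into -0.015 and -0.175 on replicates 1 and 3 and -0.98 and -1.18 on replicates 2 and 4, which carry the same treated pool number.

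**Figure D3:**
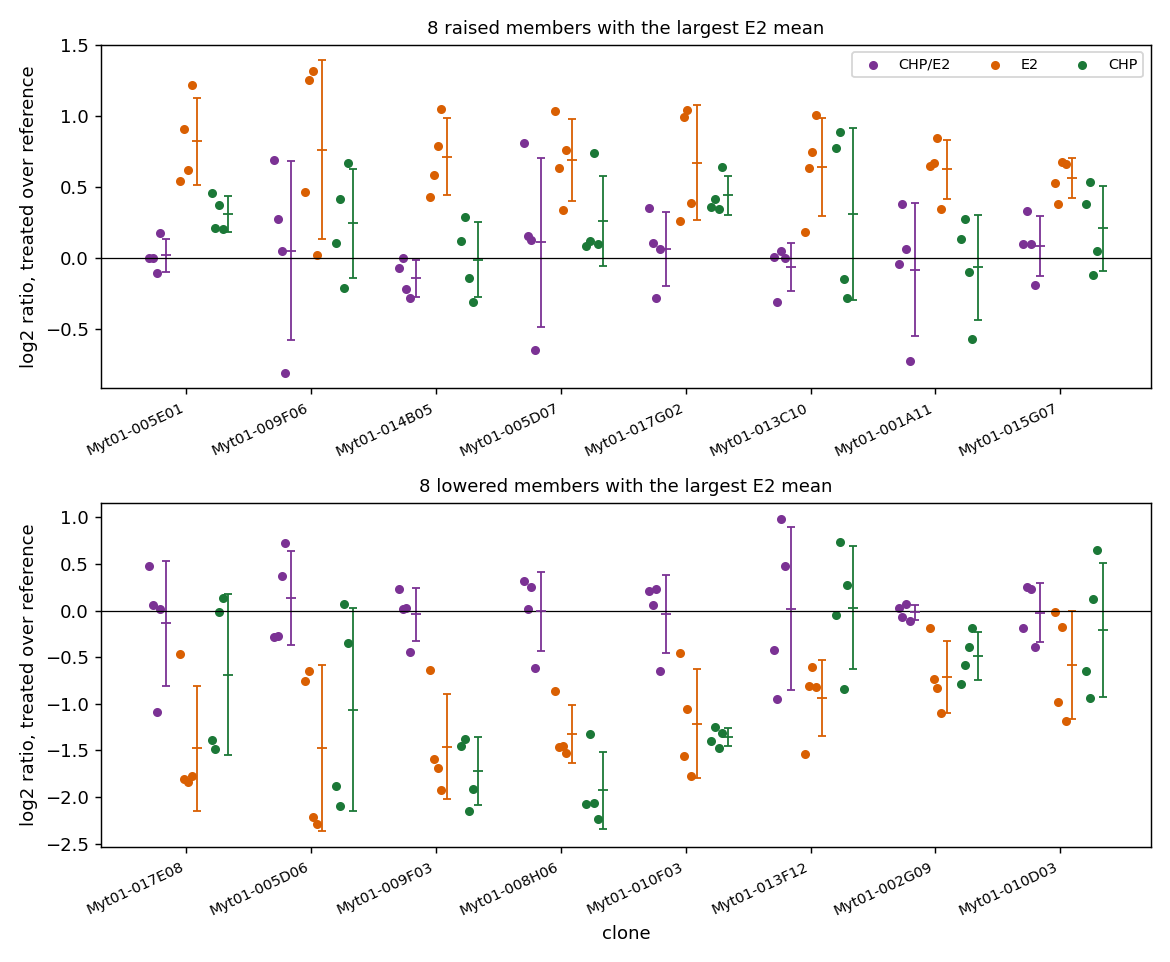
Deposited log2 ratios (vertical axis) of the 8 raised (upper panel) and 8 lowered clones (lower panel) with the largest absolute E2 mean, by clone (horizontal axis); points are single arrays, and horizontal marks with bars are the mean and SD of 4 arrays. The CHP/E2 points of Myt01-002G09 and Myt01-005E01 lie close to 0, while those of Myt01-009F06 and Myt01-013F12 spread widely around it, and with CHP Myt01-008H06, Myt01-009F03 and Myt01-010F03 lie as low as with E2 or lower.

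The label of flat holds for the mean of the CHP/E2 arrays and in few clones for every array. The CHP/E2 arrays lay on both sides of the reference in 65 of the 71 clones, and in 1381 of all 1816 clones. All 4 were within 0.15 of it in 7 clones (9.86%), against 71 of all 1816 clones (3.91%), and all 4 were within 0.25 in 16 clones, 10 raised and 6 lowered (22.5%), against 18.8% of all clones. In 55 clones (77.5%) at least 1 CHP/E2 array was beyond 0.25, the size required of the E2 mean, and in 23 clones at least 1 was beyond 0.5. Among all clones, 81.2% had a CHP/E2 array beyond 0.25, and 715 of 1816 had one beyond 0.5. A clone with all 4 arrays within 0.15 also has its mean within 0.15. Every such clone is thus among the 987 of 1816 clones (54.4%) near the reference with CHP/E2. The choice by the CHP/E2 mean bears on all these shares, so nothing is read from their differences. The number of CHP/E2 arrays within 0.15 was 0 for 10 of the 71 clones, 1 for 19, 2 for 22 and 3 for 13.

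The spread of the CHP/E2 arrays was near that of all clones and narrower than that of the 120 clones that met the E2 criterion alone. The CHP/E2 mean of these same arrays divided the 71 from the 120, so nothing is read from that difference. The median SD over the CHP/E2 arrays was 0.254 for the raised and 0.285 for the lowered clones, against 0.383 for the other raised and 0.428 for the other lowered clones of the E2 criterion and 0.232 for all clones. Over the E2 arrays the medians were 0.246 for the raised, 0.233 for the lowered and 0.213 for all clones. The SD of the CHP/E2 arrays exceeded the absolute E2 mean in 13 of the 71 clones, 9 raised and 4 lowered.

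The extremes of this spread lay far apart. Myt01-011A05 had the smallest SD of the raised clones, 0.05, with CHP/E2 ratios of -0.045, -0.14, -0.145 and -0.125, against E2 ratios of 0.23, 0.175, 0.28 and 0.34. Its CHP/E2 arrays were all slightly below the reference and its E2 arrays all above. Myt01-018C12 followed with 0.125, 0.025, 0 and 0.06 for CHP/E2 against 0.13, 0.645, 0.215 and 0.375 for E2. Of the lowered clones, Myt01-001E02 was the next to Myt01-002G09, with -0.23, -0.025, -0.08 and -0.235 for CHP/E2 and -0.215, -0.215, -0.22 and -0.565 for E2. CHP/E2 replicates 1 and 4 of Myt01-001E02 were thus as low as 3 of its E2 arrays, although the clone met the rule. At the other end, Myt01-005E11 had 0.47, 0.215, 0.165 and -1.11 for CHP/E2, so that 3 arrays were above the reference and the dye-swapped one far below. Its E2 ratios were 0.505, 0.48, 1.175 and 0.085.

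A pair of lowered clones had the widest CHP/E2 arrays of all 71. Myt01-016G12 had -0.945, -1.125, 0.265 and 1.335 for CHP/E2, with an SD of 1.15, and E2 ratios of -0.52, -0.24, -0.26 and -0.115. Myt01-017A08 had -0.805, -0.83, 0.15 and 1.17 for CHP/E2 and -0.76, -0.105, -0.205 and -0.065 for E2. In both, CHP/E2 replicates 1 and 2, which share a slide, were below the reference and replicate 4 above it by about as much. With CHP, Myt01-017A08 had 0.755, -0.645, 2.2 and 1.935, the largest positive mean of the lowered clones (1.06 ± 1.30), and Myt01-016G12 had 0.035, -0.735, 0.795 and 0.26. Of the 8 CHP/E2 arrays of both clones, only replicate 3 of Myt01-017A08 was as near as 0.15 to the reference.

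**Figure D4:**
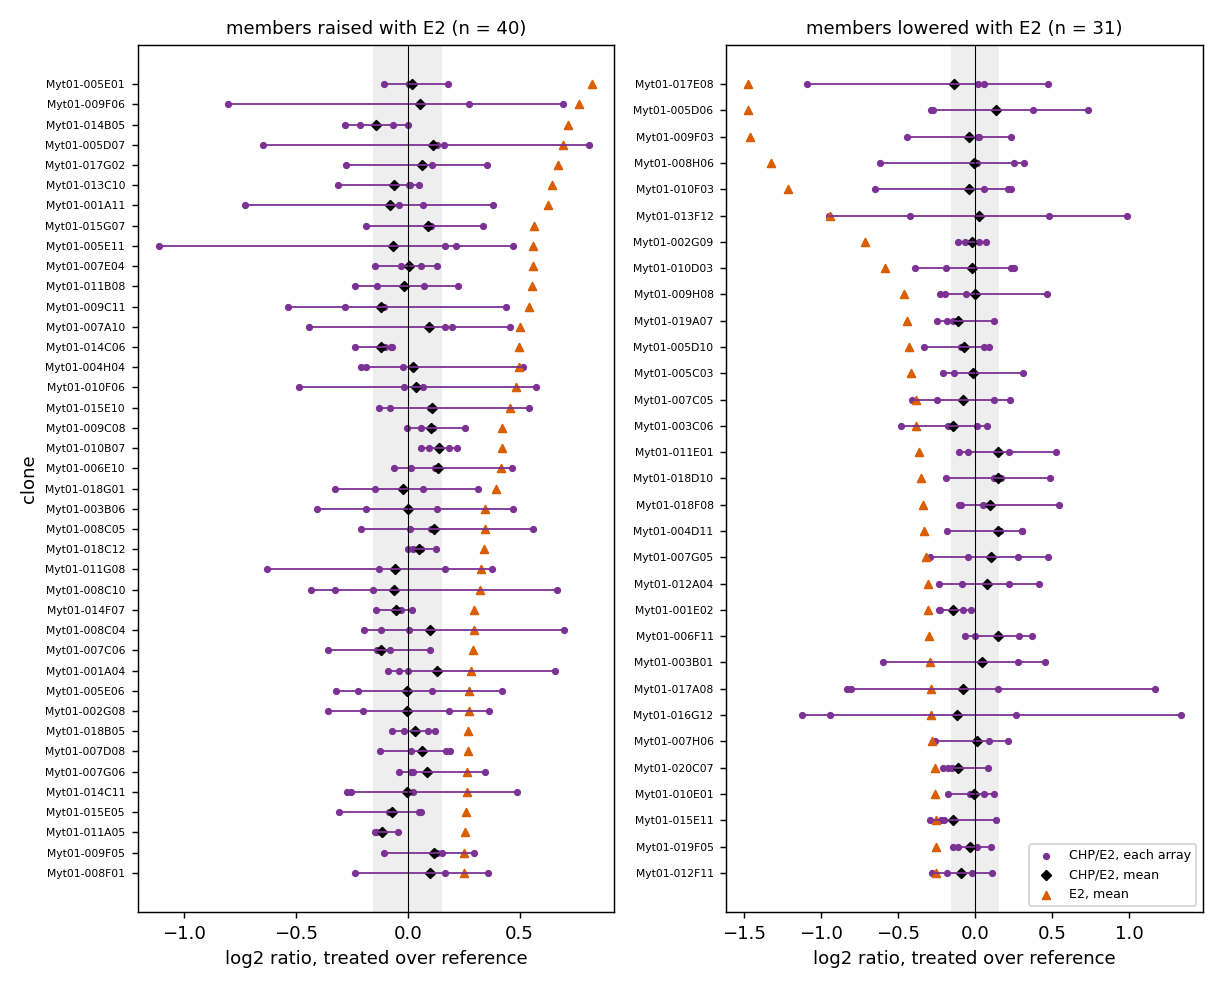
Deposited CHP/E2 log2 ratios (horizontal axis) of each raised (left panel) and lowered clone (right panel), ordered by absolute E2 mean; small points are single arrays, lines their range, diamonds the CHP/E2 mean and triangles the E2 mean of 4 arrays, and the grey band marks 0.15 on either side of the reference. Every diamond lies in the band by the choice of the clones, but all 4 points do so in only 7 of the 71 rows.

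Ratios did not shift uniformly over the CHP/E2 arrays. The medians of the raised clones were 0.10, 0.02, 0.01 and -0.11 on replicates 1 to 4, and those of the lowered clones were -0.04, 0, 0.12 and -0.11, while over all clones they were between -0.02 and 0.005. Replicate 4 was the lowest CHP/E2 array for 18 of the 40 raised and 16 of the 31 lowered clones, and for 34.7% of all clones. It was the dye-swapped array, and its scan carries the treated pool number of replicate 3.

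CHP/E2 and E2 arrays were set side by side clone by clone. They did not overlap in 17 of the 71 clones (23.9%), and in 130 of all 1816 clones (7.16%). CHP/E2 was the lower in 11 of these, all raised clones, and the higher in 6, all lowered clones, and over all clones it was the lower without overlap in 3.14% and the higher in 4.02%. As the rule used both treatments, nothing is read from this difference in shares. Besides the clones already given, the raised ones were Myt01-007C06, Myt01-007E04, Myt01-011B08, Myt01-014C06 and Myt01-015E05, and the lowered ones were Myt01-005C03 and Myt01-009H08, which are named because they complete the list. In Myt01-014C06 the CHP/E2 arrays ran from -0.235 to -0.07 and the E2 arrays from 0.05 to 0.805. In the 54 other clones the ranges of the CHP/E2 and E2 arrays overlapped.

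Replicates 1, 2 and 3 of CHP/E2 and E2 carry the same vehicle pool numbers in the scan names, so that their ratios could also be compared pool by pool. CHP/E2 was lower than E2 with all 3 vehicle pools in 23 of the 40 raised clones (57.5%), against 19.2% of all clones, and higher with all 3 in 18 of the 31 lowered clones (58.1%), against 17% of all clones. Replicate 3 of both treatments was on 1 slide. On it, CHP/E2 was lower than E2 in 38 of the 40 raised clones, with medians of 0.01 for CHP/E2 and 0.47 for E2. It was higher in 29 of the 31 lowered clones, with medians of 0.12 for CHP/E2 and -0.34 for E2. Of all 1816 clones, CHP/E2 was lower on this slide in 936 and higher in 865. With vehicle pool 1, CHP/E2 was lower in 28 of the raised and higher in 22 of the lowered clones, against 913 lower and 896 higher of all clones. These counts also rest on the arrays that chose the clones, so nothing is read from their differences.

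The CHP arrays took no part in the choice, and CHP against the reference is the comparison that was tested. It asks whether the pesticide without the hormone moved these clones. Ratios recomputed from the scanner intensities were fitted with limma over all 1816 clones and 12 arrays, and a clone was called at B over 0, where B is the log odds of differential expression. The CHP, E2 and CHP/E2 ratios share vehicle RNA, so the CHP values are given beside the others and are not independent of them. By the scan names, CHP replicates 2 and 4 also share a vehicle pool number.

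With CHP, 3 of the 31 lowered clones (9.68%) were called lower and 0 higher, and 2 of the 40 raised clones (5%) were called higher and 0 lower. Over all clones 0.771% were called lower and 1.38% higher. The other 66 clones were not called. Without adjustment, at a limma p under 0.05, 9 of the 31 lowered clones (29%) were lower against 9.86% of all clones, and 2 were higher. Likewise 6 of the 40 raised clones (15%) were higher against 11.9% of all clones, and 0 were lower. The raised clones called with CHP were therefore few, and at the unadjusted p their share was near that of all clones.

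Myt01-008H06 fell with CHP to recomputed log2 ratios of -2.16, -1.41, -1.96 and -2.29, a mean of -1.95 ± 0.39 (SD, n = 4 arrays) or 0.258-fold of the reference (limma, SE 0.166, adjusted p = 0.000123). It was one of the brighter clones, with a mean log2 intensity of 11.31. Myt01-009F03 fell to -1.42, -1.19, -1.90 and -1.86, a mean of -1.59 ± 0.35 or 0.332-fold (limma, SE 0.169, adjusted p = 0.000529). Myt01-010F03 fell to -1.18, -0.89, -1.30 and -1.01, a mean of -1.10 ± 0.18 or 0.467-fold (limma, SE 0.184, adjusted p = 0.00837). In the deposited ratios, too, each clone was lower on all of its CHP arrays than on any of its CHP/E2 arrays. These 3 clones were thus well below the reference with CHP and with E2 given alone and had means near it with CHP/E2. Myt01-010F03 no longer reached B over 0 without CHP replicate 1 or without CHP replicate 3 (adjusted p = 0.0382 and 0.0617 in limma), and the calls of the other 2 clones held without any 1 CHP array. When limma was fitted on the CHP arrays alone, the adjusted p was 0.0313 for Myt01-008H06, 0.0358 for Myt01-009F03 and 0.0313 for Myt01-010F03.

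The raised clones called with CHP had smaller changes. Myt01-018G01 rose to recomputed ratios of 0.42, 0.22, 0.89 and 1.01, a mean of 0.64 ± 0.38 or 1.55-fold (limma, SE 0.131, adjusted p = 0.0232). Its deposited ratios were 0.315, 0.07, -0.325 and -0.145 with CHP/E2 and 0.3, 0.55, 0.315 and 0.405 with E2, so that CHP/E2 replicate 1 reached the E2 range. Myt01-007E04 rose to 0.50, 0.24, 0.40 and 0.67, a mean of 0.45 ± 0.18 or 1.37-fold (limma, SE 0.0926, adjusted p = 0.0232). Its deposited ratios were -0.145, -0.03, 0.06 and 0.13 with CHP/E2 and 0.66, 0.44, 0.27 and 0.87 with E2, without overlap. Neither clone reached B over 0 without CHP replicate 1, 3 or 4, where the adjusted p in limma was between 0.0427 and 0.13. With limma on the CHP arrays alone, the adjusted p was 0.241 for Myt01-018G01 and 0.169 for Myt01-007E04.

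Next to the called clones stood those that passed a Benjamini-Hochberg adjusted p under 0.05 alone. Myt01-010B07 was one, with recomputed CHP ratios of 0.43, 0.36, 0.54 and 0.59, a mean of 0.48 ± 0.10 (limma, adjusted p = 0.0311). Its deposited ratios were 0.185, 0.06, 0.095 and 0.22 with CHP/E2, the only clone of the 71 that was above the reference on all 4 CHP/E2 arrays, and 0.125, 0.91, 0.385 and 0.265 with E2. The other was Myt01-015E11, a lowered clone outside the rule for naming that is given because it was the 1 member past this threshold in the opposite direction. With CHP it was higher, at 0.53, 0.005, 0.29 and 0.44, a mean of 0.32 ± 0.23 (limma, adjusted p = 0.0455). At this threshold 3 raised and 1 lowered clone were higher and 3 lowered clones were lower, against 2.64% higher and 1.27% lower of all clones.

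Over all 71 clones, called ones included, the CHP means lay mostly on the same side of the reference as the E2 means. The recomputed CHP mean was above 0 in 32 of the 40 raised clones and below 0 in 22 of the 31 lowered clones. Of all 1816 clones, 896 were above and 920 below. The ratios of both treatments share vehicle RNA, and what part this had was not tested. The median recomputed CHP ratio was 0.11 for the raised clones and -0.09 for the lowered clones, against 0.00 for all clones, and the means ran from -0.19 to 0.64 in the raised and from -1.95 to 0.91 in the lowered clones. All 4 CHP arrays were above the reference in 11 of the 40 raised clones and 1 of the 31 lowered clones. They were all below it in 1 raised and 7 lowered clones. Of all 1816 clones, 215 (11.8%) were above on all 4 and 213 (11.7%) below. The 120 clones that met the E2 criterion alone were 63 raised and 57 lowered. Of the 63, 8 (12.7%) were called higher with CHP, against 5% of the raised members. Of the 57, 2 (3.51%) were called lower, against 9.68% of the lowered members. At an unadjusted limma p under 0.05, 36.5% of the 63 were higher, against 15% of the raised members. Likewise 12.3% of the 57 were lower, against 29% of the lowered members.

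**Figure D5:**
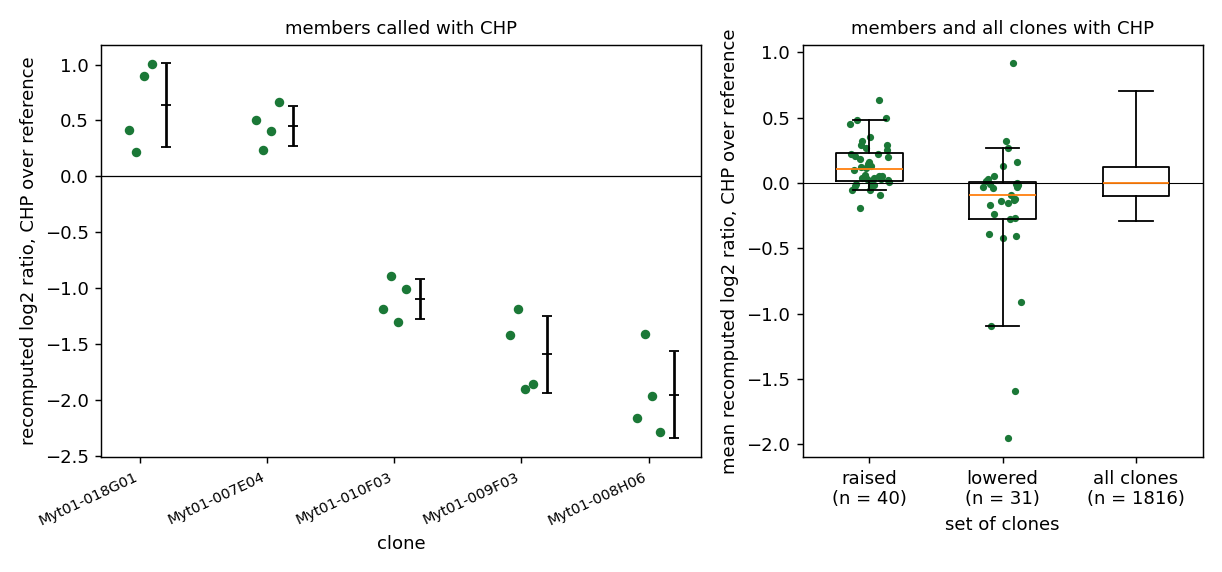
Left, recomputed log2 ratios of CHP over reference (vertical axis) of the 5 clones called with CHP, as 4 arrays each with the mean and SD. Right, mean recomputed CHP log2 ratio of the raised, the lowered and all 1816 clones (boxes, quartiles and median; whiskers, 5th and 95th percentile; points, single clones): the medians are 0.11, -0.09 and 0.00, and 3 lowered clones that were called lie at -1.10 or below.

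The values of the clones depend on how the ratios were made. On the ratios recomputed from the scanner intensities, 35 of the 71 clones met the whole rule, 19 raised and 16 lowered. The E2 criterion was the one that failed: 38 clones met it, while 66 were near the reference with CHP/E2. One sign on all 4 E2 arrays was kept by 60 clones, 22 of them with a mean under 0.25. Over the 71 clones, the median absolute E2 mean was 0.278 recomputed and 0.361 as deposited.

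The clones had signals a little above the average of the array. Their median log2 intensity was 8.09 for the raised and 8.13 for the lowered clones, against 7.67 for all clones. A clone was counted on an array when either of its spots, in either channel, exceeded the background by 2 of its SDs. A count thus does not show that both channels of a ratio were above background. The criterion held on all 12 arrays in 44 of the 71 clones (62%), against 57.1% of all clones. In 6 clones (8.45%) this held on fewer than 6 arrays, against 17.9% of all clones: Myt01-014C11 and Myt01-018F08 on 5, Myt01-005C03 on 2, and Myt01-019A07, Myt01-019F05 and Myt01-020C07 on 0. For the last 3 every ratio rests on spots that were not distinguished from their background. The 6 clones are named because of these counts and not by the rule for naming.

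Both spots of a clone had 1 sign on all 4 E2 arrays in 48 of the 71 clones, in 79 of the 120 that met the E2 criterion alone and in 213 of all 1816 clones, where the E2 criterion itself asks for 1 sign of the mean of both spots. The median difference between the spots on the E2 arrays was 0.08, against 0.1 for all clones. The clones came from all 20 source plates, with 1 to 8 on a plate, and lay in all 16 print blocks, with 2 to 8 in a block. None of the 71 was among the 40 clones with the widest spread between arrays.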

How the data were processed

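Digestive gland RNA was measured on 12 dual color arrays, 4 each for CHP/E2, E2 and CHP, against vehicle RNA. The authors deposited scanner intensities (spot mean and local background median in Cy5 and Cy3, not normalized) and normalized log2 ratios of treated over reference RNA. They name limma, and its version and the normalization are not given in the sources used here. Deposited ratios of the 2 spots of a clone were averaged, and they chose and describe the clones. For the CHP test, intensities were corrected with normexp (offset 50), loess-normalized within arrays with 720 control and blank spots at weight 0, averaged over spots and turned on the 3 dye-swapped arrays. Fitting used lmFit and eBayes (limma 3.58.1, R 4.3.3; two-sided, prior proportion 0.01) over the 1816 clones with a deposited value. The other 104 clones of the 1920 were left out. The fit was tested on simulated data with independent noise on each array. The simulation held no shared slides, shared pools or dye effects, so it does not show how these bear on the calls.

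Arrays were taken as the separate replicates the labels state, although scan names give 2 pairs of them the same treated pool number. Within the tested CHP group, replicates 2 and 4 carry the same vehicle pool number. The p-values measure only the spread between these arrays. The members and lists were chosen with earlier results of these data known. Named with values were the 8 clones of largest absolute E2 mean per direction, those called with CHP, the 2 of smallest and of largest SD over the CHP/E2 arrays per direction, and the nearest clones inside and outside each limit. Alternatives covered background correction, normalization, thresholds, dim clones, blocks, dye and single arrays.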

Additional observations from a re-analysis of the deposited data

Results flagged for a closer look

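Of 84 groups of 4 arrays (the named clones of the 71 in each treatment, deposited ratios), 6 held an array far from the other 3 by Dixon's criterion, which chance meets in about 1 of 20 groups. For Myt01-013C10, CHP/E2 replicate 2 was at -0.31 and the others between 0 and 0.05. For Myt01-017E08, E2 replicate 1 was at -0.47 and the others between -1.84 and -1.78, and for Myt01-008H06, E2 replicate 1 was at -0.86 and the others between -1.52 and -1.46. For Myt01-001E02, E2 replicate 4 was at -0.56 and the others at -0.22. With CHP, Myt01-005D07 was at 0.74 on replicate 3 and between 0.08 and 0.12 on the others, and Myt01-019F05, whose spots were not above background on any array, was at -1.2 on replicate 2 and between 0 and 0.16 on the others.

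Both treatments with E2 lay on opposite sides of the reference on every array for 2 raised clones. Myt01-011A05 had a mean of -0.11 with CHP/E2 and 0.26 with E2, and Myt01-014C06 had -0.12 with CHP/E2 and 0.50 with E2. The difference was not tested, since the rule used both treatments.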

How the results depend on the processing

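Membership depended on the limits, on the way the ratios were made and on single arrays. Against 40 raised and 31 lowered clones, the recomputed ratios gave 27 raised (19 shared) and 21 lowered (16 shared) with normexp and loess, 21 (14 shared) and 12 (6 shared) without background correction, 28 (23 shared) and 20 (12 shared) with print-tip loess, and 27 (11 shared) and 27 (6 shared) with median centring. With arrays of the same treated pool number averaged there were 49 raised (32 shared) and 44 lowered (23 shared). With an E2 limit of 0.2 there were 61 raised and 48 lowered, and with 0.3 there were 26 raised. With a CHP/E2 limit of 0.1 there were 18 lowered. With every CHP/E2 array also within 0.25, an alternative chosen after seeing the data, 10 raised and 6 lowered remained. Leaving out 1 array gave 34 to 62 raised and 18 to 55 lowered clones: 62 raised and 51 lowered without E2 replicate 3, 55 lowered without E2 replicate 1, and 18 lowered without CHP/E2 replicate 2. Leaving out an E2 array also loosens the rule, as 1 sign is then asked of fewer arrays. Each time, both counts were higher, at 48 to 62 raised and 41 to 55 lowered clones. Averaging arrays of the same treated pool number likewise leaves fewer E2 values. What else had a part in these changes was not tested.

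The 2 raised clones called with CHP became 1 with no background correction, plain subtraction, scale normalization between arrays, dim clones left out, CHP arrays alone and the slide as a random block, and 0 with median centring. Without 1 CHP array they were 0 to 2, at 0 without replicate 1, 3 or 4. The 3 lowered calls became 5 with a dye term and 2 to 4 without 1 array. The 39 calls over all clones became 17 with median centring (14 higher), 71 at an adjusted p under 0.05, 15 with CHP arrays alone, 92 with a dye term (64 higher) and 22 to 52 without 1 CHP array, at 22 without replicate 3. Averaging arrays of the same treated pool number in the fit, also chosen after seeing the data, gave 2 raised, 3 lowered and 36 calls over all clones, with Myt01-018G01 not called. Over the fit and its 17 alternatives, Myt01-008H06 and Myt01-009F03 were called 18 of 18 times, Myt01-010F03 15, Myt01-007E04 9 and Myt01-018G01 8 times, all without a change of sign.

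With the replicate number as a block, 1 raised clone was called, and Myt01-018G01 had an adjusted p of 0.067. All clones gave 29 calls in that fit. The scan names give replicates 1 to 3 of CHP/E2 and E2 the vehicle pool of the same number. CHP replicate 1 carries vehicle pool number 2, and CHP replicates 2 and 4 carry number 3. CHP arrays thus share vehicle pool numbers with the other treatments, but not by replicate number. Deviations of same-numbered arrays correlated between -0.453 and 0.605 over the 3 treatments, so the replicate numbers were not taken as pairs in the CHP test.

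The files hold 4 arrays per treatment, and signals of the dimmer Cy3 channel little above background limit the ratios of dim clones. Cy3 was the treated channel on the dye-swapped arrays and the reference channel on the others.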

Other observations

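The same rule was applied to other pairs of treatments on the deposited ratios, as a description. Of 225 clones that met the first criterion with CHP/E2, 120 were near the reference with E2 (53.3%, against 61.6% of all clones). Of 267 that met it with CHP, 129 were near the reference with CHP/E2 (48.3%, against 54.4% of all clones), and of the 191 that met it with E2, 63 were near the reference with CHP (33%, against 50.5% of all clones). All these pairs share vehicle RNA. The 104 clones without a deposited value held 0 raised and 0 lowered clones by the rule on recomputed ratios.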
